A study of Drosophila melanogaster with 6 samples.

Results

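The chemoreceptors of the fly are the odorant receptors (Or), the gustatory receptors (Gr) and the ionotropic receptors (Ir), and their transcripts were followed here in RNA from whole heads of adult Drosophila melanogaster males. The members were all probe sets annotated to a single gene whose symbol is Orco or begins with Or, Gr or Ir followed by a number and a letter. This gave 186 probe sets of 166 genes, of 13647 probe sets of 11953 genes with a single gene name on the array. Of the 166 genes, 57 were Or, 56 Gr and 53 Ir genes, with 63, 63 and 60 probe sets.

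Heads came from males 2 to 5 days old, raised at 25 °C, and each of 2 genotypes was measured on 3 Affymetrix arrays that the labels call biological replicates. Deletion males carried Sxlfp7BO, a small deletion of the whole Sex-lethal (Sxl) gene, together with the flanking markers cm and ct. Wild-type males were their brothers and are labelled Oregon-R, the strain into which the deletion had been crossed repeatedly. Because cm and ct travel with the deletion, a difference between the genotypes cannot be told apart from an effect of these linked alleles. None of the 166 receptor genes lies between cm and ct, and the nearest, Ir7a, is 64 genes from Sxl in the RefSeq gene order. The marker ct is itself 51 genes from Sxl, on the same side as Ir7a.

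Odorant receptors work as pairs of a tuning receptor, which differs between neuron classes of the antenna and maxillary palp, and the common co-receptor Orco. Gustatory receptors detect sugars and bitter compounds in taste bristles of the labellum, legs and pharynx, and Gr21a and Gr63a together detect carbon dioxide in the antenna. Ionotropic receptors are relatives of glutamate receptors that need the co-receptors Ir8a, Ir25a or Ir76b, and they detect acids, amines, humidity, temperature and tastants. Each tuning receptor is made in few neurons. Sxl itself is the switch gene of female development.

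Markers of eye, brain, glia and antenna were present on the arrays. Sxl, measured by 3 probe sets, ranged from 88.8 to 206 intensity units in wild type and from 3.99 to 6.26 in deletion males, which checks the labels. The eye markers chp, inaD and trp, the neuronal markers elav and nSyb and the glial markers repo, nrv2 and Gs2 were above the silent-gene range defined below on all 6 arrays, as were 10 of 11 probe sets for other antennal genes. Among these were lush (616 in wild type) and Obp83b (2558), odorant-binding proteins of antennal sensilla. Of the 4 probe sets of the synaptic gene brp, 2 were above it on all arrays and 2 on none. None of the 5 probe sets of testis markers was above that range on all 6 arrays. Mst84Da was above it on 1 array and Mst98Ca on 2, all of them wild type, and the other 3 were above it on none.

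Few receptors gave a signal that stood clear of the arrays' lower range. The deposited table holds no detection calls, so a lower range was taken from 21 probe sets of genes known from the ovary (14 eggshell genes) or the larval salivary gland (7 glue genes), and a receptor counted as above it on an array where its intensity exceeded the 95th percentile of these probe sets on that array. This limit was 13.3, 10.9 and 12.6 on the wild-type arrays and 13.9, 14.1 and 12.7 on the deletion arrays. Of the 186 receptor probe sets, 9 were above it on all 6 arrays, 11 on 1 to 5 arrays and 166 on none, so that 4.84% passed on every array, against 49.3% of all 18769 probe sets that are not controls. The 9 were Orco, Or43b, Or63a, Or59b, Ir76a, Ir68a, Ir76b, Ir25a and Ir64a.

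The 166 probe sets above the limit on none of the arrays had mean intensities from 4.39 to 10.3 with a median of 6.17, and 102 of all 186 lay at or under the median of the silent genes on all 6 arrays. A signal in that range shows only that the transcript was not detectable in whole-head RNA with these probes. In whole heads, fewer neurons of a class and less RNA per neuron cannot be told apart. Intensities of different probe sets depend on how well each binds its target, so the values below do not rank the transcripts by number.

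**Figure D1:**
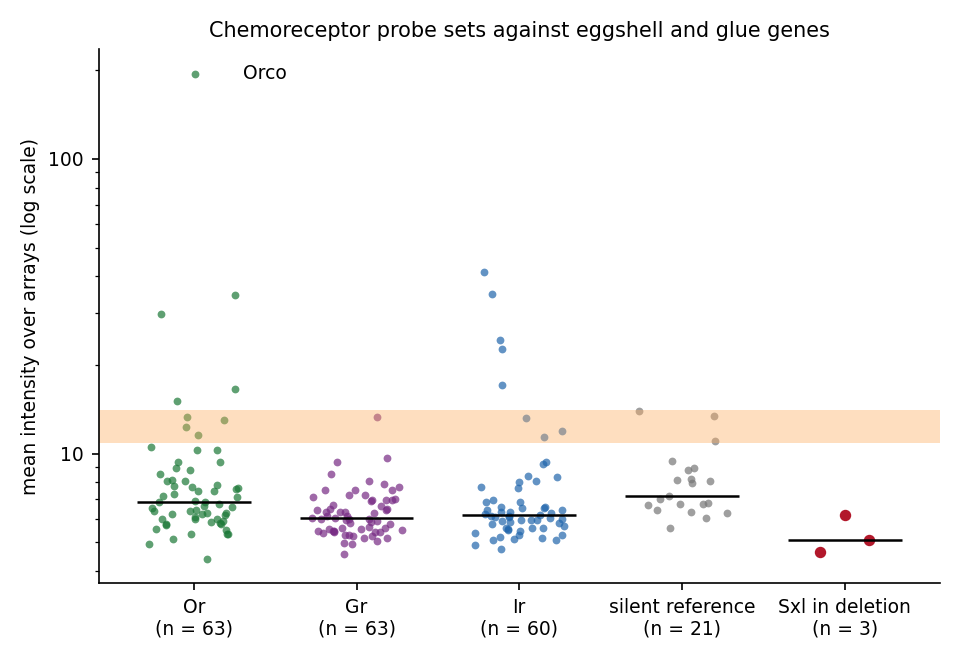
Mean intensity over 6 arrays (log axis) of each Or, Gr and Ir probe set and of the 21 silent-gene probe sets, and mean over the 3 deletion arrays of the 3 Sxl probe sets. Lines mark medians and the band spans the per-array 95th percentiles of the silent genes, 10.9 to 14.1. Orco stands at 195. Orco and 8 further receptors, but no Gr probe set, were above the limit on every array. The mean of Or92a (15.1) also lies above the band, although it was above the limit on 5 of 6 arrays.

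Orco lay furthest above the limit. Its intensities were 181, 194 and 204 in wild type and 192, 195 and 204 in deletion males. The lowest of these was on a wild-type array, the groups overlapped, and every value was at least 13.6 times the silent-gene limit of its array.

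Among tuning odorant receptors, Or43b, a receptor of the adult antenna, gave 32.4, 35.8 and 31.8 in wild type and 33.1, 33.3 and 39.8 in deletion males. Or59b, another antennal receptor, gave 17.8, 16.2 and 16 against 17, 16 and 16.1. For both genes the genotypes overlapped, and the values of Or59b were close to the limit, at 1.13 times it on the nearest array. Or63a, listed here among receptors known from the larva, gave 31.1, 28.5 and 30.2 in wild type and 23.9, 30.2 and 35.1 in deletion males. Both its lowest and its highest value were in the deletion group. It was the only one of 10 larval receptors above the limit on all arrays; Or1a was above it on 1 array, and the other 8 had means from 4.92 to 8.51.

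The remaining antennal odorant receptors were near or under the limit. Of the 39 antennal probe sets (35 genes), 2 were above it on all arrays, 3 on some and 34 on none. Or92a, a receptor for the vinegar odorant diacetyl, was above on 5 of 6 arrays, with 14.2, 15.5 and 16.2 in wild type and 16.7, 15.3 and 12.4 in deletion males. Or47b, a receptor for fly-derived odours that promotes male courtship, was above on 4 of 6, with 11.1, 11.3 and 13.3 against 15.5, 13.5 and 15. Here the 3 deletion values all lay beyond the 3 wild-type values.

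Or22a, a receptor for fruit esters, was above the limit on 2 arrays and ranged from 8.62 to 14, both extremes in wild type. Or67d, the receptor for the male pheromone cis-vaccenyl acetate, ranged from 8.30 to 10.2 and was above on none. Or42b, a receptor of the vinegar response, ranged from 6.17 to 7.78 and was above on none. These 3 receptors are thus not separated from the silent genes, although antennal tissue was present in the samples.

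The receptors of the maxillary palp, the smaller olfactory organ, had 9 probe sets of 7 genes and none above the limit on all arrays. Or42a was above on 3 arrays, with 13.3, 12.3 and 10.2 in wild type and 15.7, 12.5 and 14 in deletion males. Or71a was above on 2, with 12.9, 12.4 and 14.2 against 11.1, 12.3 and 11.0. Deletion values of Or71a were all below the wild-type values, while those of Or42a overlapped them. Or85e, a palp receptor, ranged from 6.50 to 8.70 and was above on none.

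Of the ionotropic receptors, 5 of 60 probe sets (8.33%) were above the limit on all arrays, against 4 of 63 for Or (6.35%) and 0 of 63 for Gr. All 5, and the 3 further probe sets above it on some arrays, belonged to the co-receptors and to the antennal tuning receptors. Of the 39 Ir probe sets outside these lists, many of them taste receptors, none was above the limit on any array and the means were from 4.76 to 9.39.

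The co-receptor Ir25a gave 19.1, 24.3 and 21.2 in wild type and 21.5, 24.1 and 25.3 in deletion males, above the limit on all arrays with overlapping groups. The co-receptor Ir76b, which serves antennal amine receptors and taste neurons, gave 14.2, 24.0 and 27.8 against 25.6, 29.1 and 24.4. Its value on wild-type replicate 1 was the lowest, at 1.07 times the limit, and the array with the highest value exceeded it by 2.05-fold. The co-receptor of acid-sensing neurons, Ir8a, was above the limit on 3 of 6 arrays, with 13.0, 14.6 and 13.8 against 10.8, 14.8 and 12.0, again with overlap.

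Ir76a, a tuning receptor for amines, gave 40, 36.9 and 38.1 in wild type and 39.4, 44.6 and 48.4 in deletion males. Ir68a, a receptor of moist-air sensing, gave 25.5, 38.5 and 26.4 against 40.1, 42.6 and 35.5. Of its wild-type values only that of replicate 2 reached into the deletion range. Ir64a, a receptor for acids, gave 15.5, 17.8 and 21.0 against 16.8, 16.3 and 15.4, close to the limit and overlapping.

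Other antennal Ir genes stayed near the silent range. Ir31a and Ir75a were each above the limit on 1 wild-type array, with means of 11.9 and 11.4. Ir84a, which responds to food aromatics and promotes male courtship, ranged from 8.53 to 10.2. The temperature and humidity receptors Ir21a, Ir40a and Ir93a, with 2 probe sets each, had means between 5.76 and 8.37 and were above on none. So the partners of Ir68a in moist-air sensing differed among themselves in detectability, with Ir25a above the limit on all arrays and Ir93a on none.

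No gustatory receptor was above the limit on all 6 arrays, and 61 of 63 Gr probe sets were above it on none. Gr63a, a subunit of the carbon dioxide receptor, came nearest, above on 4 arrays with 16.3, 11.1 and 15.4 in wild type and 15.2, 11.2 and 10.5 in deletion males. Its partner Gr21a ranged from 5.72 to 8.77 and was above on none. Gr32a, a receptor for bitter compounds and a male pheromone, was above on 1 wild-type array, with a mean of 9.65.

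No probe set that names a single sugar receptor was above the limit on any array. These measure 5 of the 9 listed sugar receptors, and the other 4 share probe sets described below. Gr5a, a receptor for trehalose, ranged from 6.78 to 8.11, Gr64f, a co-receptor for sugars, from 6.56 to 9.90, and Gr43a, the fructose receptor, from 6.02 to 7.05. All 5 had means from 6 to 8.09. The common bitter receptors Gr66a and Gr33a had means of 7.21 and 6.15, and Gr28a and Gr28b, relatives with roles in taste, light and heat sensing, had 6.31 and 7.21. The 41 Gr probe sets outside the lists had means from 4.98 to 9.34.

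**Figure D2:**
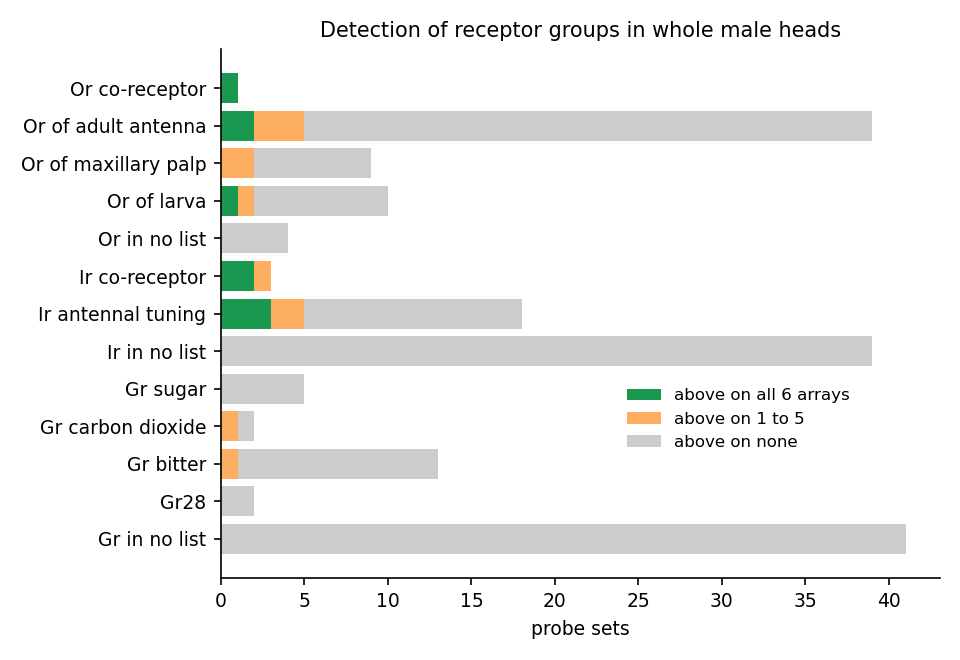
Number of probe sets in each receptor group (bars start at 0) that were above the silent-gene limit on all 6 arrays, on 1 to 5, or on none. No single-gene probe set of the sugar and Gr28 groups, or of the receptors in no list, was above the limit on any array.

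**Figure D3:**
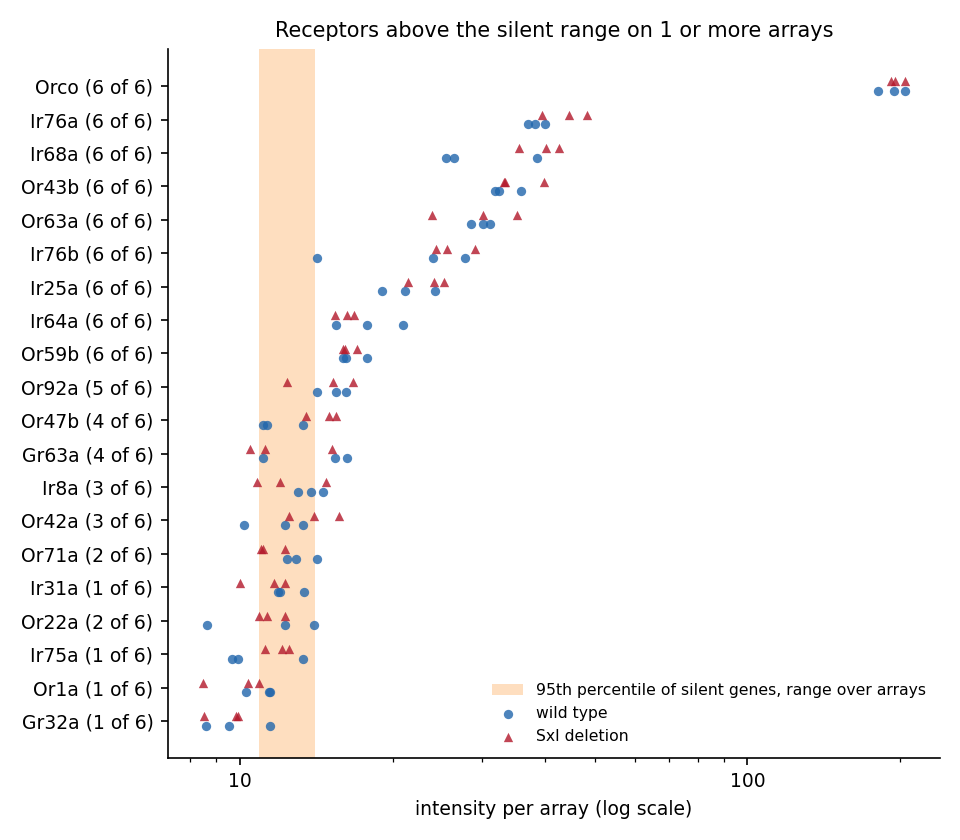
Intensity on each array (log axis) of the 20 receptor probe sets above the silent-gene limit on 1 or more arrays, circles for wild type and triangles for deletion males, with the number of arrays above the limit in brackets. The band spans the limit on the 6 arrays, from 10.9 to 14.1; Orco lies far to its right, and the last 11 receptors lie in or across it.

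On all 3 wild-type arrays 11 receptors were above the limit and on all 3 deletion arrays 9 were. There were 0 above it on all arrays of a genotype and none of the other. The limit was lowest on wild-type replicate 2 (10.9), where 19 receptors were above it, against 11 to 16 on the other arrays. Of all 18769 probe sets, 10078 were above it there, against 9477 to 9712 elsewhere. Or1a, Gr32a and Ir31a were above it on that array alone, so these counts depend also on the limit of each array. Of receptors above the limit on all arrays, Ir76b, Or59b and Ir64a came nearest, with lowest ratios to it of 1.07, 1.13 and 1.15. Among the others, the lowest ratio over the 6 arrays was highest for Or92a, Or47b and Or42a, at 0.981, 0.833 and 0.812. Or71a and Gr63a followed closely, at 0.8 and 0.793. The highest ratios of Or92a, Or47b and Or42a were 1.42, 1.19 and 1.13, and they were above the limit on 5, 4 and 3 arrays. The class of Ir76b, Or59b, Ir64a and Or92a therefore rests on small margins. Only Orco, Ir76a and Or43b exceeded 2 times the limit on every array.

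By chromosome arm, the 9 receptors were 5 of the 30 receptor probe sets on 3L, 2 of 49 on 2R, 1 of 41 on 2L and 1 of 44 on 3R. On the X it was 0 of 22. These counts are small, and a difference between arms was not tested. Among the 9, 3 genes overlap another gene in the RefSeq annotation, as do 45 of the 166 receptor genes, and the notes used here do not say whether each probe set separates overlapping transcripts. Or43b overlaps Cul1, a ubiquitin ligase subunit, whose own probe set gave 511 in wild type and 463 in deletion males. Ir76a overlaps CG14102 (40.4 and 35.5) and is measured by the 1 receptor probe set with the suffix that the array maker gives to probes shared between transcripts. Or59b overlaps CG43795, whose 6 probe sets had means from 6.92 to 29.5. The part of these neighbours in the receptor signals was not tested. Orco, Or63a, Ir25a, Ir64a, Ir68a and Ir76b overlap no annotated gene.

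Genes with several probe sets gave the same class on each. All 12 such receptor genes, among them Or35a, Or46a and Or69a with 3 each and Gr39a with 5, had no probe set above the limit on any array, and their means were from 4.39 to 8.52. A further 5 probe sets name several genes and were not members. The shared probe set of Or19b and Or19a ranged from 7.28 to 8.81 and was above the limit on none of the arrays. For the sugar receptors Gr64b and Gr64c, 1 shared probe set ranged from 5.58 to 6.53, above on none, and the other from 10.8 to 14.7, above on 2 arrays. That of Gr64d and Gr64e ranged from 12.8 to 15, above on 3 arrays. The probe set shared by Ir75d and COX6AL2 was above it on all 6, from 18.6 to 25.1, and cannot be assigned to the receptor.

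No receptor passed the test between the genotypes. The comparison asks whether loss of Sxl, with the linked alleles, alters receptor transcripts in the male head. Of the 186 probe sets, 31 reached the intensity filter of the genotype test (17 Or, 4 Gr and 10 Ir), of which 9 were above the silent-gene limit on all arrays, 11 on some and 11 on none. By limma with Benjamini-Hochberg adjustment over all 11261 tested probe sets, 0 of the 31 passed an adjusted p of 0.05, while 2.60% of all tested probe sets did. The smallest adjusted p among receptors was 0.199. At an unadjusted p under 0.05 there were 2 receptors, 6.45% of the 31, against 17.6% of all tested probe sets. Fitted without the filter, so that the 155 remaining receptors were included, 0 of 186 passed, against 1.40% of all 18769 probe sets. In that fit 11 of the 186 (5.91%) had an unadjusted p under 0.05, against 12.7%, and 18 (9.68%) had groups of values that did not overlap, against 18.8%.

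Of the 31, 15 had a positive and 16 a negative log2 fold change, and the median was -0.023, against 0.004 over all tested probe sets. Sizes ran from -0.20 to 0.40. In 3 of the 31 (9.68%) the values of the genotypes did not overlap, against 24.0% of all tested probe sets: Or47b and Or67a were higher and Or71a was lower in the deletion males. For 7 of the 9 receptors above the silent-gene limit on all arrays, the 95% confidence interval of the fold change lay within 1.5-fold in either direction. The folds of receptors at the silent range set no such bound on their transcripts.

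Orco had the narrowest bounds of the receptors above the limit. Mean intensities of 193 ± 11.3 and 197 ± 6.39 (wild type, then deletion; SD, n = 3) gave a log2 fold change of 0.03 with a 95% interval from -0.11 to 0.17 (limma adjusted p = 0.869). The Ir co-receptors had wider intervals, from -0.12 to 0.39 around 0.13 for Ir25a (adjusted p = 0.594) and from -0.21 to 0.80 around 0.30 for Ir76b (adjusted p = 0.55). The interval of Ir76b therefore still holds differences of more than 1.5-fold. Leaving out single arrays moved its log2 fold change between 0.024, without wild-type replicate 1, and 0.485, without wild-type replicate 3. That of Ir25a moved between 0.054, without wild-type replicate 1, and 0.221, without wild-type replicate 2.

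The smallest unadjusted p were those of Or47b and Ir68a. Ir68a had means of 30.1 ± 7.26 and 39.4 ± 3.62, which is 0.40 ± 0.16 on the log2 scale (SE, limma adjusted p = 0.247, or 0.0796 with the replicate number as a block). Or47b had means of 11.9 ± 1.24 and 14.7 ± 1.05, which is 0.28 ± 0.10 (adjusted p = 0.199, or 0.145 with the block), and was above the silent-gene limit on only 2 arrays of each genotype. Neither passed the threshold in either fit. With a pseudocount of 16 in place of 1, which lowers the folds of dim probe sets, the log2 fold changes were 0.137 for Or47b and 0.274 for Ir68a.

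The other receptors above the limit on all arrays had log2 fold changes of 0.19 for Ir76a, 0.08 for Or43b, -0.02 for Or59b, -0.03 for Or63a and -0.15 for Ir64a, with adjusted p from 0.34 to 0.951. The value of Ir64a was -0.039 without wild-type replicate 3 and -0.250 without wild-type replicate 1. Among the next smallest p were Or71a (-0.18) and Or42a (0.22), at adjusted p of 0.345 and 0.395, the latter 0.127 on the log2 scale without wild-type replicate 3, and Ir56c, Or43a and Or1a followed at 0.54 or more.

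**Figure D4:**
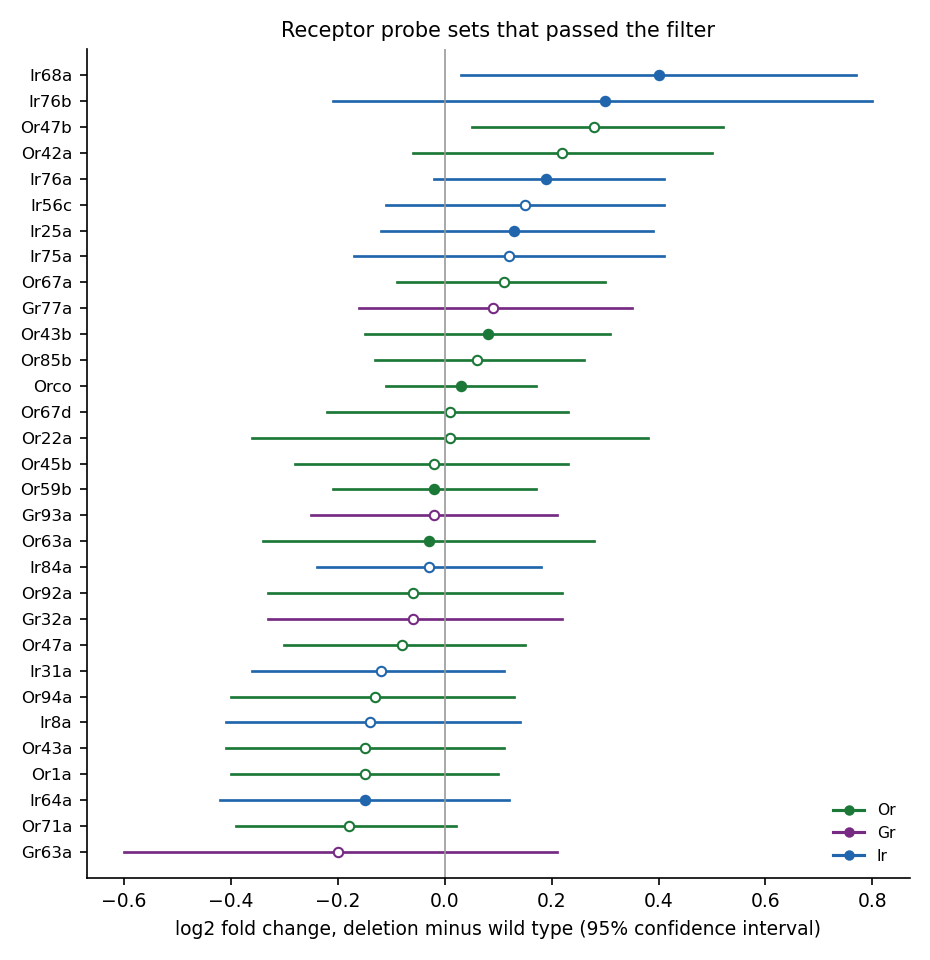
Log2 fold change from wild type to deletion with its 95% confidence interval (limma, 3 arrays per genotype) for the 31 receptor probe sets that reached the filter. Filled points were above the silent-gene limit on all 6 arrays and open points were not; only the intervals of Ir68a and Or47b leave out 0, and neither passed the adjusted threshold.

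Other genes of the same sense organs were bright enough to give a finer comparison. Of 10 tested probe sets for antennal genes that are not receptors, 8 had a positive and 2 a negative log2 fold change (median 0.127). At an unadjusted limma p under 0.05 there were 7 (70.0%), against 17.6% of all tested probe sets. Of the 10, 0 passed the adjusted threshold, with a smallest limma adjusted p of 0.11. With the replicate block, which was chosen from these values and may be too favourable, 5 passed, against 7.40% of all tested probe sets under that fit, and still 0 of the 31 receptors. Rising with the block was lush, needed for pheromone detection, with 620, 597 and 631 in wild type and 724, 659 and 727 in deletion males. Its log2 fold change was 0.19 (limma adjusted p = 0.0394, or 0.117 without the block). Obp84a (0.26, adjusted p = 0.0476, or 0.11) and Obp59a, an odorant-binding protein of humidity-sensing sensilla (0.31, adjusted p = 0.0311, or 0.142), rose as well. The other Obp59a probe set, with a mean of 4.47, was above the silent-gene limit on none of the arrays and did not reach the filter.

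Falling with the block was Obp19a, on both of its probe sets (-0.21 and -0.17, adjusted p = 0.0355 and 0.0494, or 0.261 and 0.252 without the block). The groups of 3 values did not overlap for 5 of the 10 probe sets, all higher in the deletion males, against 24.0% of all tested probe sets. These 5 were lush, Obp84a, Obp59a, Obp83b and Snmp1, a membrane protein of pheromone-sensing neurons. The antennal list summed to between 7670 and 8215 units on the wild-type arrays and to between 7970 and 8430 on the deletion arrays, so the groups overlapped. Bright probe sets such as those of Obp83b (2558 in wild type) and Obp69a (1709) weigh most in this sum. It also holds both falling probe sets of Obp19a (980 and 550). Over the same arrays the 3 eye markers summed to between 6050 and 8278 in wild type and between 10145 and 10559 in deletion males. Of them 1 of 3 was called, and 3 of 3 with the block, against 2.60% and 7.40% of all tested probe sets. The fat body markers summed to between 12920 and 13732 against between 10762 and 11784. Of 3 tested, 0 were called, and 1 with the block. Fbp1 and Yp1 among the fat body markers were above the silent-gene limit on none of the arrays. Sums of the neuronal (1719 to 1894 against 1847 to 1965), glial (6319 to 6881 against 6252 to 6494) and muscle markers (1407 to 1682 against 1560 to 1771) overlapped. The part of the eye and fat body shifts in the antennal values was not tested.

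No regulator of receptor choice or pheromone-sensing channel passed the test. Of 9 tested probe sets 2 were positive and 7 negative (median -0.095). Without the block 0 were called, against 2.60% of all tested probe sets, and with it 0, against 7.40%. A count of 0 among 9 therefore does not set these genes apart. The smallest limma adjusted p was 0.435, or 0.192 with the block. The transcription factor genes pdm3 and acj6, which act in the choice of odorant receptors, had log2 fold changes of -0.15, on the brighter of its probe sets, and -0.18. Channels of contact pheromone neurons were at the silent range, with ppk23 and ppk25 above the limit on no array and ppk29 on 4, and Snmp2, a relative of Snmp1, gave 38.6 and 35.8 on the brighter of its probe sets.

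**Figure D5:**
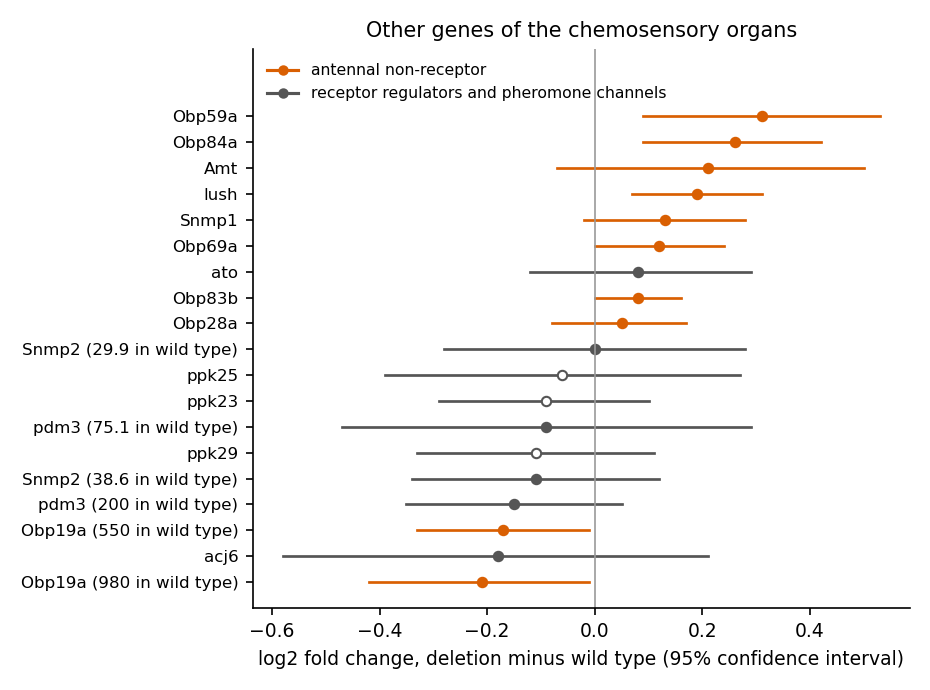
Log2 fold change from wild type to deletion with its 95% confidence interval (limma without the replicate block) for tested antennal genes that are not receptors and for regulators and pheromone channels. Filled points were above the silent-gene limit on all 6 arrays; the antennal genes run from -0.21 for Obp19a to 0.31 for Obp59a.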

How the data were processed

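RNA from male heads was hybridised to 6 Affymetrix arrays, 3 per genotype. The authors deposited 1 linear intensity per probe set and array; the summarisation, background correction and normalization are not given in the sources used here. Array medians were between 14.2 and 14.6, so the deposited intensities were used as they were. Arrays have no read depth, and their number limits the precision.

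Values were analysed as log2(intensity + 1) with limma 3.58.1 in R 4.3.3 (genotype as the only term, intensity trend, two-sided, Benjamini-Hochberg). The table has 18952 probe sets, 183 of them controls, which were dropped. Testing was limited to the 11261 whose mean reached the 40th percentile, an intensity of 8.35. The SD is over 3 arrays. The p-values set the genotype difference against the spread between arrays of a genotype, which limma moderates with all tested probe sets. The procedure was also run on simulated data whose noise was independent between arrays. That simulation lacked the shared deviations described below, and no result here rests on it. Names came from the platform annotation, updated through RefSeq (Release 6); the array's build is not given, so no coordinates are printed.

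Arrays that share a replicate number deviated together from their genotype means (correlations of 0.216, 0.248 and 0.114, against a bound of 0.1), so arrays of the same number were treated as pairs in the block fit. All values are nevertheless from the fit without pairs unless the block is named. The labels leave the meaning of the numbers unstated, and the pairing rests on the values alone.

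Members and lists were chosen with earlier results of these data known. Named receptors were those called, the 10 with the smallest p and up to 8 of the brightest per family above the limit. Also named were a fixed set of well-studied ones and the 3 nearest to the limit on each side, by lowest ratio over the arrays. For the other chemosensory lists, the 4 with the smallest p were named. Cul1, CG14102, CG43795, Gr32a, Ir31a, Ir75a, Or67a, Obp83b, Snmp1, acj6 and ppk25 were added after their values were seen. Receptor sequences are not used here.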

Additional observations from a re-analysis of the deposited data

How the results depend on the processing

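The reference decides how many receptors count as detectable. With the highest silent-gene probe set, the 90th percentile, eggshell genes alone or quantile normalization, 8 to 11 receptors passed against 9. With Sxl in the deletion males as the reference, 58 passed (29 Or, 12 Gr, 17 Ir), and with the filter of the genotype test 31 did (17, 4 and 10). Of all probe sets that are not controls, 68.5% passed with this Sxl reference and 60% with the filter, against 49.3% with the main limit. Chosen after the data were seen, leaving out Cp18 and Vm26Aa, the brightest silent genes, gave 16 (8 Or, 1 Gr), and 2 times the limit gave 3 (2 Or, 1 Ir). In these settings 53% and 42.7% of all probe sets passed. Omitting single arrays gave 9 or 10. No alternative called a receptor; the smallest adjusted p among them was 0.0663, without wild-type replicate 2, and 0.0796 with the replicate block. The median log2 fold change of tested receptors ran from -0.015 to 0.033 with single arrays left out. Probe sets called over the whole array were 293, but 128 without the trend, 572 with array weights, 833 with the replicate block and between 54 and 432 on omitting 1 array. For these changes the cause was not tested.

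The block added calls for lush, Obp84a, Obp59a and Obp19a and, among the markers, for chp, trp, nSyb, nrv2 and Lsp2. It changed no call of a receptor. Of 174 values for 29 named probe sets with all arrays kept, 165 kept direction and call. Signs turned for Or63a (0.030 with array weights), Or22a (-0.003 with pseudocount 16, -0.100 with array weights) and Or67d (-0.002 with quantile normalization, -0.034 with array weights), none called. With single arrays left out 11 of 173 values turned: Orco ran from -0.015 to 0.069, Or43b from -0.004 to 0.132, Or63a from -0.151 to 0.117, Or59b from -0.051 to 0.023, Ir84a from -0.083 to 0.033, Or22a from -0.178 to 0.143, Or67d from -0.065 to 0.071 and Or92a from -0.141 to 0.057.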
